A study of Mus musculus with 80 samples.

Results

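Of 10785 barcoded reporters that passed the DNA minimum, 1445 (13.4%) kept a weak but reproducible RNA signal at the highest doxycycline (dox) dose, 100 ng/ml, and are the members described here. The deposited table held 10903 reporters. A reporter passed the DNA minimum with 10 or more reads in each of the 8 genomic DNA libraries of its pool. A member also had 10 or more RNA reads in both dox 100 RNA libraries and a log2 RNA/DNA ratio below 0 there in both cultures, so the members were selected on the dox 100 RNA and DNA reads. The ratio is the reporter's share of the RNA reads over its share of the DNA reads in a library, with a pseudocount of 1, so 0 stands for the average yield per template of that library. Pools A, B, C and D gave 322, 332, 380 and 411 members. These were 14.4%, 14.7%, 12.2% and 13.0% of the pools' reporters (mean 13.6% ± 1.18, SD, n = 4 pools).

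The cells are EBRTcH3, a mouse embryonic stem cell line in which the tetracycline-controlled transactivator is made from the ROSA26 promoter in every group, control included. Reporters were inserted with the piggyBac transposon, and each carries its own barcode, read in cDNA for expression and in genomic DNA for abundance. After transfection, sorting kept cells with little eGFP, which grew for 5 days. Pools made from few of these cells were propagated over 7 days, and then each gave rise to 2 cultures kept separate during the last 7 days. Each culture was then given dox at 0 ng/ml, 0.01 ng/ml, 0.1 ng/ml or 100 ng/ml for 72 h. The titles and design name a tet-Off reporter, whereas the culture protocols also speak of a mouse PGK promoter; which promoter drives the reporters was not tested. The 2 cultures are technical replicates per the labels, so p-values measure only the spread between cultures of 1 pool. The files hold barcode counts and no endogenous genes, so stem cell markers were not measured.

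In a tet-Off system the transactivator binds operator sequences beside a minimal promoter and switches the gene on, and dox releases it from the DNA. RNA that remains at a dose high enough to release it therefore reports transcription with little or no activator, which is known to depend on the chromatin and the enhancers around the insertion. PiggyBac inserts at TTAA sites and is known to favour open, active chromatin. A barcode's RNA is the sum over all cells of its clone, so less RNA per cell and fewer cells with RNA cannot be told apart.

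The RNA libraries held 729108 to 1840870 reads in these reporters and the DNA libraries 923846 to 1571280. Of the other reporters past the DNA minimum, 1150 had 10 or more RNA reads at dox 100 in both libraries with a ratio of 0 or more in both, and are called strong residual reporters. A further 542 had those reads but a ratio below 0 in 1 culture, 172 had fewer than 10 reads in 1 or both libraries, 2261 had RNA in 1 library only and 5215 had none. Since PCR reads carried no molecular identifiers, every floor given here includes counting error alone.

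Barcodes are the only sequence that tells the members apart. The 10 printed had the largest tested changes among members that moved the same way in both cultures. They are given because their dose courses carry the results further on. They are 16 bases long, in lower case with no base marked, and barcodes of equal length within a pool differed by 3 or more bases. The first 5 lost their RNA at dox 0.1 and the last 5 gained RNA there; positions are those of the deposited table, whose submitters name mm9.
Pool A, chr4:44604348, minus strand: tacctaaaggagacat
Pool B, chr15:81847236, plus strand: ttttccggaattaacc
Pool D, chr14:50067649, minus strand: tcgcaccacgtacaca
Pool A, chr3:131850309, plus strand: agcattttagaaccaa
Pool D, chr3:108504305, minus strand: gttcatagttaagtct
Pool A, chr3:58459547, plus strand: ctgtcgattacgttcg
Pool D, chr7:30200390, minus strand: ttaccgcagaactcta
Pool C, chr16:48608982, plus strand: ctcagacttacctcga
Pool C, chr17:79739723, plus strand: gtattaggcaattaag
Pool A, chr3:63182789, plus strand: gtaatgccctaattac

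Without dox the members gave near-average RNA per template, above the typical reporter and below the strong residual reporters. Their median log2 RNA/DNA was −0.37, −0.34, −0.22 and −0.05 in pools A, B, C and D (mean −0.24 ± 0.145, SD, n = 4 pools). All reporters together had −0.79 and strong residual reporters 1.03 ± 0.098, and the pool medians of these groups did not overlap with those of the members. Reporters without RNA at dox 100 started lowest, at −1.60 ± 0.05. At dox 0.01 the members' median was −0.36 ± 0.104. Within reporters the median step from dox 0 was −0.14 ± 0.029 (SD, n = 4 pools) in members and −0.33 ± 0.019 over all reporters. In both cultures, 531 members (36.75%) were lower and 325 (22.49%) higher, against 44.78% lower and 17.79% higher over all reporters. The members' median was −1.35 ± 0.165 at dox 0.1 and, where the rule requires it to be below 0, −1.77 ± 0.16 at dox 100. These levels are relative to library totals. Relative to the median reporter of each library the course runs the other way, with members at 0.56, 0.79, 1.5 and 5.0 over the 4 doses, since the median reporter goes down further. At dox 100 the median RNA count over all reporters was 0 in every library, so the value of 5.0 depends on the pseudocount. The rule's read minimum places the members above such a reporter, so their position at dox 100 is no finding. Over the same doses the strong residual reporters took a growing part of the reads, with medians of 1.30, 1.83 and 1.96, while reporters without RNA at dox 100 went to −2.23, −5.63 and −8.00.

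**Figure D1:**
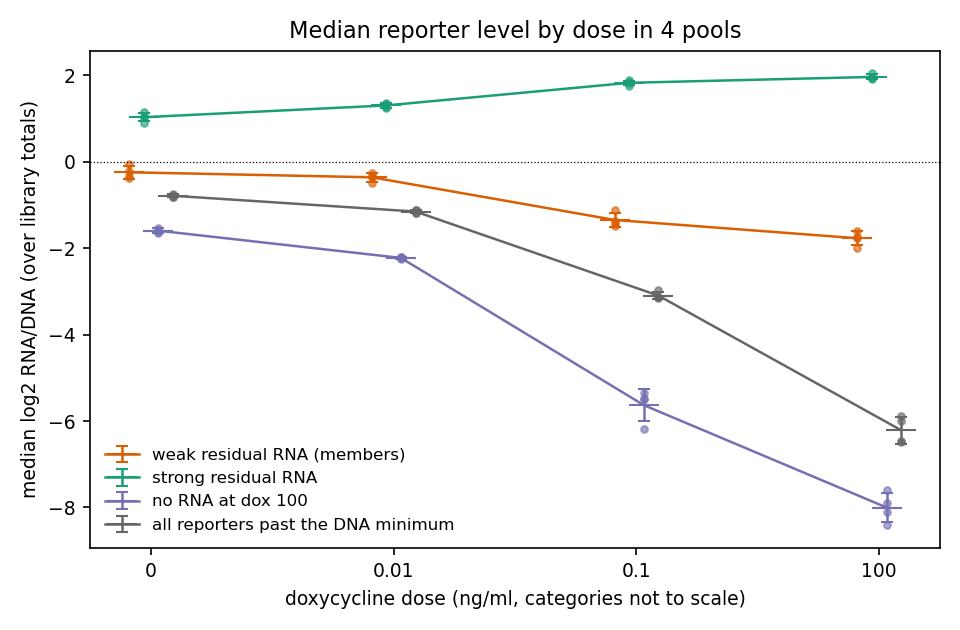
Median log2 RNA/DNA over library totals (y axis) at the 4 dox doses (x axis, categories) for members, strong residual reporters, reporters with no RNA at dox 100 and all reporters past the DNA minimum. Points are the 4 pools, dashes and bars their mean ± SD. The members run from −0.24 at dox 0 to −1.77 at dox 100 and lie between the strong residual reporters and the full set at each dose. Relative to the median reporter the members' course runs upward, from 0.56 to 5.0. The last value is set by the rule and the pseudocount, since the median RNA count at dox 100 was 0.

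The members' part of all RNA reads moved with dose in the same way. It was 22.3% ± 1.45 (SD, n = 4 pools) at dox 0 and 21.9% ± 1.24 at dox 0.01. It was 12.3% ± 0.359 at dox 0.1 and 6.31% ± 0.384 at dox 100, while the members' part of the DNA reads stayed between 19.8% and 20.1% on average. The 8 RNA libraries at dox 0 gave 21.0% to 24.1%, against 11.9% to 13.0% at dox 0.1, with no overlap. At dox 100 they gave 5.59% to 6.91%. There the rule holds the members' part of the RNA reads below that of the DNA reads, so this range is a description. Member RNA counts at dox 100 ran from 10 to 1683, with library medians of 96.5 to 181.5. RNA was read in all 8 RNA libraries for 1357 members, and 1336 had 10 or more reads in each.

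The members were heterogeneous before dox was added, though less so than all reporters together. Their levels at dox 0 ran from −10.3 to 4.12 with quartiles at −1.37 and 0.79. The SD between members, corrected for replicate noise by the covariance of the 2 cultures, was 1.58 ± 0.0939 on the log2 scale at dox 0, 1.70 ± 0.0646 at dox 0.01 and 1.80 ± 0.0357 at dox 0.1 (SD, n = 4 pools). Over all reporters the SD was wider, at 1.995, 2.31 and 3.24 for these doses. At dox 100, where the rule bounds the ratio from above and the read minimum from below, the members' SD was 0.81. The cultures gave a Pearson r across members of 0.91 at dox 0 and 0.46 at dox 100, and their median absolute difference was 0.40 and 0.76 on the log2 scale. The residual level of a single member was thus less precise than its activated level. Of all reporters past the DNA minimum, 21.0% had RNA in 1 of the 2 dox 100 libraries and none in the other.

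**Figure D2:**
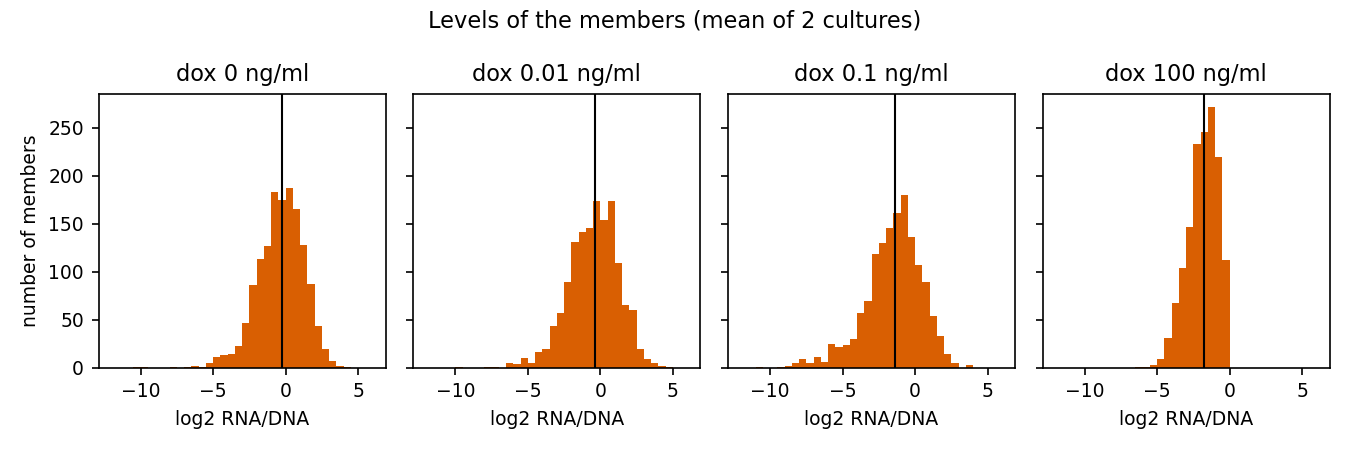
Number of members (y axis) by log2 RNA/DNA over library totals (x axis, mean of 2 cultures) at each dox dose, with a vertical line at the median. Members spread from −10.3 to 4.12 at dox 0, and the distribution at dox 100 ends at 0 because the rule sets that limit.

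The level without dox and the level at dox 100 were only weakly ordered alike. Spearman's rho across members within pools was 0.14 ± 0.0702 (SD, n = 4 pools) between dox 0 and dox 100, 0.16 between dox 0.01 and dox 100 and 0.32 between dox 0.1 and dox 100. Between dox 0 and dox 0.01 it was 0.92, and between dox 0 and dox 0.1 it was 0.67. Members of 1 pool share libraries, and the rule narrows the range at dox 100. The strong residual reporters, whose range the rule also bounds, had 0.32 between dox 0 and dox 100. At dox 100 their noise-corrected SD was 1.48 against 0.81 in members, and their Pearson r between cultures 0.84 against 0.46. The rho values of these groups are thus not on equal terms.

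The extremes show how different the activated levels could be. The member at chr6:47996407 in pool C, the highest at dox 0, had 3429 and 3638 RNA reads at dox 0, 3353 and 3890 at dox 0.01, 882 and 917 at dox 0.1 and 66 and 50 at dox 100 in the 2 cultures. Its ratio went from 4.12 to −1.73. The member at chr9:108363859 in pool A had the most RNA of these, with 13337 and 15365 reads at dox 0, 11696 and 13600 at dox 0.01, 3052 and 3838 at dox 0.1 and 68 and 20 at dox 100. Its ratio was 3.96 at dox 0 and −4.40 at dox 100, the widest descent of the 3 highest members. The last of the 3, at chr3:30763139 in pool B, had 971 and 1086 reads at dox 0, 1192 and 1483 at dox 0.01, 502 and 571 at dox 0.1 and 77 and 40 at dox 100. Its DNA counts at dox 0 were 17 and 282, so its dox 0 ratio of 3.61 rests on cultures at 5.48 and 1.74.

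Of the 3 lowest members at dox 100, 2 had 243 or more RNA reads per culture at each lower dose. The member at chr16:36481835 in pool B gave 1089 and 1225 RNA reads at dox 0, 1126 and 1365 at dox 0.01, 728 and 519 at dox 0.1 and 55 and 10 at dox 100, where its ratio was −6.16. The member at chr5:150165093 in pool A gave 1439 and 1506, then 983 and 1341, 243 and 341, and 16 and 38 reads at the same doses, and its ratio ended at −5.13. The member at chr16:11641951 in pool B gave 451 and 435 reads at dox 0, 211 and 210 at dox 0.01, 2 and 13 at dox 0.1 and 44 and 10 at dox 100. It was called lower at dox 0.1 than at dox 0 (log2 change −4.35 ± 0.65, SE; adjusted p = 0.000504, edgeR), by −3.28 without replicate 1 of dox 0.1 and −6.50 without replicate 2 of dox 0.1. At the other end of the rule, the member at chrX:12567745 in pool A had ratios of −0.67 and −0.0018 in the dox 100 cultures, and the member at chr17:36025842 in pool C had −0.23 and −0.0021. Just outside were chr6:49036084 in pool C, with 0.0019 and −0.81, and chr11:19820663 in pool B, with 0.0029 and −0.33. In all, 164 members had their higher dox 100 ratio between −0.25 and 0, 805 were below −1 in both cultures, and 48 had fewer than 20 reads in the lower dox 100 library.

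Whether a member's RNA at dox 0.1 differed from dox 0 was tested on the 12 libraries per pool at dox 0, 0.01 and 0.1, which the rule did not use for the ratio. At dox 0.1, 147 members (10.2%) were called lower and 242 (16.7%) higher than at dox 0, against 25.1% lower and 12.2% higher among all 10785 reporters (edgeR, adjusted p below 0.05). The other 1056 members were not called. The members' median change was 0.26 on the log2 scale and that of all reporters −0.70. Within pools the members' median lay above that of all reporters by 0.95 ± 0.124 (SD, n = 4 pools). Strong residual reporters were called higher in 775 of 1150 cases and lower in 6, and reporters without RNA at dox 100 were called lower in 2022 of 5215 and higher in 50. These groups were set by dox 100 libraries of the same cultures, and the counts are a description.

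The direction of the members' calls depended on how libraries were scaled. Changes above are relative to the trimmed mean of M-values (TMM), the reporters in the middle of the distribution, which themselves go down with dox. With library totals in place of TMM, the median of all reporters moved to −1.95, and 532 members (36.8%) were called lower and 47 (3.25%) higher, with a median of −0.98, against 47.6% lower and 5.55% higher among all reporters. The share called higher was thus above that of all reporters with TMM and below it with library totals, while the share called lower was below it with both. The members' median was above that of all reporters by 0.97 with either scaling. Of the members' calls, 62.2% were higher with TMM, 59.1% with DESeq2's size factors and 8.12% with library totals. The counts also moved with single replicates: 60 lower and 112 higher without replicate 2 of dox 0 (14.4% and 7.61% of all reporters), 61 and 119 without replicate 1 of dox 0 (14.7% and 7.55% of all), and 268 lower without replicate 1 of dox 0.1 (36.3% of all). With the dox 100 libraries in the fit, 147 members (10.2%) were called higher, against 9.07% of all.

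Called members were deeper than the rest. The 147 called lower had a median of 778 DNA reads at dox 0 and the 242 called higher 707, against 474 in those not called. The members called lower had a median ratio of 0.44 ± 0.62 at dox 0, −2.87 ± 0.328 at dox 0.1 and −2.56 ± 0.447 at dox 100 (SD, n = 4 pools). The members called higher had −0.57 ± 0.281, 0.09 ± 0.249 and −1.35 ± 0.127 at the same doses. The calls fix the order of dox 0 and dox 0.1 in these groups and the rule bounds dox 100, so the values are a description.

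Among members moved the same way in both cultures, the largest called losses were in those with no RNA read at dox 0.1 in either culture. All members have RNA at dox 100 by the rule, so its presence there is no finding. The member at chr3:131850309 in pool A had 126 and 147 RNA reads at dox 0, 46 and 37 at dox 0.01, 0 and 0 at dox 0.1, and 74 and 77 at dox 100, from 1548 to 2164 DNA reads. Its RNA/DNA was at least 74.3-fold lower at dox 0.1 than at dox 0, against a floor of 3 reads over both dox 0.1 libraries (adjusted p = 6.56e-05, edgeR). Both cultures at dox 0.1 lay below those at dox 0 and dox 0.01.

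The other 4 of these members also had RNA in both cultures at dox 0 and dox 0.01 and none at dox 0.1. At chr15:81847236 in pool B the RNA reads were 91 and 67 at dox 0, 75 and 86 at dox 0.01, 0 and 0 at dox 0.1 and 44 and 81 at dox 100, at least 64.8-fold lower at dox 0.1 than at dox 0 (adjusted p = 0.000451, edgeR). At chr14:50067649 in pool D they were 123 and 147, 69 and 39, 0 and 0, and 78 and 69, at least 67.4-fold lower (adjusted p = 0.000755, edgeR). At chr3:108504305 in pool D they were 62 and 41, 30 and 39, 0 and 0, and 106 and 92, at least 40.7-fold lower (adjusted p = 0.00161, edgeR). In each of the 3, the cultures at dox 0.1 did not overlap with those at dox 0. The member at chr4:44604348 in pool A had 151 and 201 reads at dox 0, 86 and 101 at dox 0.01, 0 and 0 at dox 0.1 and 180 and 114 at dox 100. Its bound, at least 329-fold lower, rests on DNA counts of 134 and 10 at dox 0, which put the cultures at ratios of 0.03 and 3.90 there (adjusted p = 0.00384, edgeR).

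In all, 10 members (0.692%) had no RNA read in either dox 0.1 library, and all 10 were called lower. They had 15 to 201 RNA reads per library at dox 0, 5 to 101 at dox 0.01 and 28 to 247 at dox 100. Their bounds for dox 0 over dox 0.1 ran from 7.11-fold to 329-fold. A further 77 members (5.33%) lacked RNA in 1 dox 0.1 library. Both shares were below those over all reporters, of which 18.5% lacked RNA in both dox 0.1 libraries and 18.6% in 1. Across all members, the ratio to library totals was higher at dox 100 than at dox 0.1 in both cultures for 381 (26.4%). It was lower in both for 665 (46.0%) and differed in sign between cultures for 399. Over all reporters 17.7% were higher and 49.4% lower in both. Since the dox 100 values chose the members, these counts are not tested.

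Other members gained RNA with dox. The member at chr3:58459547 in pool A, among the most abundant clones with 3458 to 5790 DNA reads, had 2 and 13 RNA reads at dox 0, 26 and 36 at dox 0.01, 407 and 178 at dox 0.1 and 696 and 250 at dox 100. It was higher at dox 0.1 by 6.62 ± 0.74 on the log2 scale (SE; adjusted p = 0.000123, edgeR), and both cultures were higher at each dose than at the dose below. The change was 5.88 and 8.34 without replicate 1 and replicate 2 of dox 0, and 5.75 without replicate 1 of dox 0.1. The member at chr7:30200390 in pool D had 8 and 0, 6 and 0, 55 and 113, and 142 and 450 RNA reads at the same doses. Its change was 6.48 ± 0.97 (SE; adjusted p = 0.000626, edgeR), and 10.41 without replicate 1 of dox 0, which leaves no RNA read at that dose. It was 5.67 without replicate 2 of dox 0 and 5.70 without replicate 2 of dox 0.1. These were the lowest members at dox 0, with ratios of −9.85 and −10.3, and had almost no RNA in the absence of dox.

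The remaining 3 gains started from higher levels. The member at chr16:48608982 in pool C had 48 and 54 RNA reads at dox 0, 91 and 125 at dox 0.01, 361 and 428 at dox 0.1 and 451 and 334 at dox 100, a change of 4.82 ± 0.56 at dox 0.1 (SE; adjusted p = 8e-05, edgeR). At chr17:79739723 in pool C the reads were 1 and 10, 8 and 13, 50 and 21, and 111 and 65, a change of 4.52 ± 0.90 (SE; adjusted p = 0.00252, edgeR), which was 3.79 and 6.59 without replicate 1 and replicate 2 of dox 0. At chr3:63182789 in pool A they were 16 and 32, 29 and 25, 136 and 304, and 293 and 428, a change of 4.35 ± 0.63 (SE; adjusted p = 0.00049, edgeR), which was 5.02 and 3.55 without replicate 1 and replicate 2 of dox 0.1. Raw reads at dox 0.1 exceeded those at dox 0 without overlap in all 3, which were chosen among members moved the same way in both cultures. Over all members, 189 (13.1%) had a higher ratio to library totals at dox 100 than at dox 0 in both cultures, and 1030 (71.3%) a lower one. The shares over all reporters were 10.4% and 77.7%. Since the rule bounds the members' dox 100 ratio, these counts are a description.

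**Figure D3:**
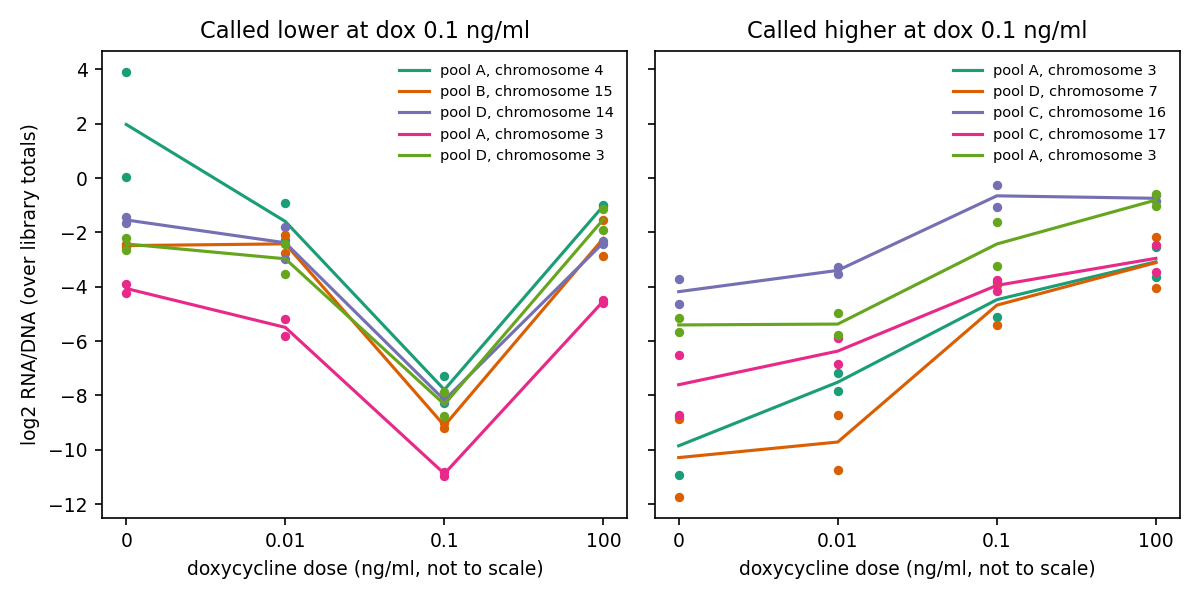
Log2 RNA/DNA over library totals (y axis) by dox dose (x axis, categories) for the 5 members with the largest calls each way at dox 0.1. They were chosen among called members that moved the same way in both cultures. Points are the 2 cultures and lines their mean. The left panel shows levels at dox 0.1, where both cultures had 0 RNA reads, below those at dox 0 and 0.01 in all 5 (RNA at dox 100 is set by the rule), and the right panel shows levels at dox 0.1 above those at dox 0 in both cultures of all 5.

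At dox 0.01, the lowest dose, no member was called against dox 0 (edgeR, adjusted p below 0.05), and 0.102% of all reporters were. At an unadjusted p below 0.05 there were 118 members (8.17%), against 843 of the 10785 reporters. DESeq2's Wald test called 1 member lower and 10 (0.692%) higher, against 0.315% lower and 0.927% higher among all reporters. The members' median change lay above that of all reporters by 0.19 ± 0.037 (SD, n = 4 pools). This comparison shares its dox 0 libraries with that of dox 0.1.

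Members were a larger share of the abundant clones than of the rare ones. In the lowest quartile of DNA counts at dox 0 within pools, with a median of 124 reads, 4.23% of reporters were members. In the next quartiles the share was 9.64%, 15.3% and 24.4%, the last at a median of 855 DNA reads. Strong residual reporters showed no such order, at 11.2%, 10.6%, 9.32% and 11.5%. Reporters without RNA at dox 100 went from 58.8% to 34.6%. The rule asks for 10 RNA reads at a low yield per template, which a rare clone reaches less easily; the part of this in the shares was not tested. With 100 or more DNA reads in every library, 1263 of 7415 reporters were members.

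**Figure D4:**
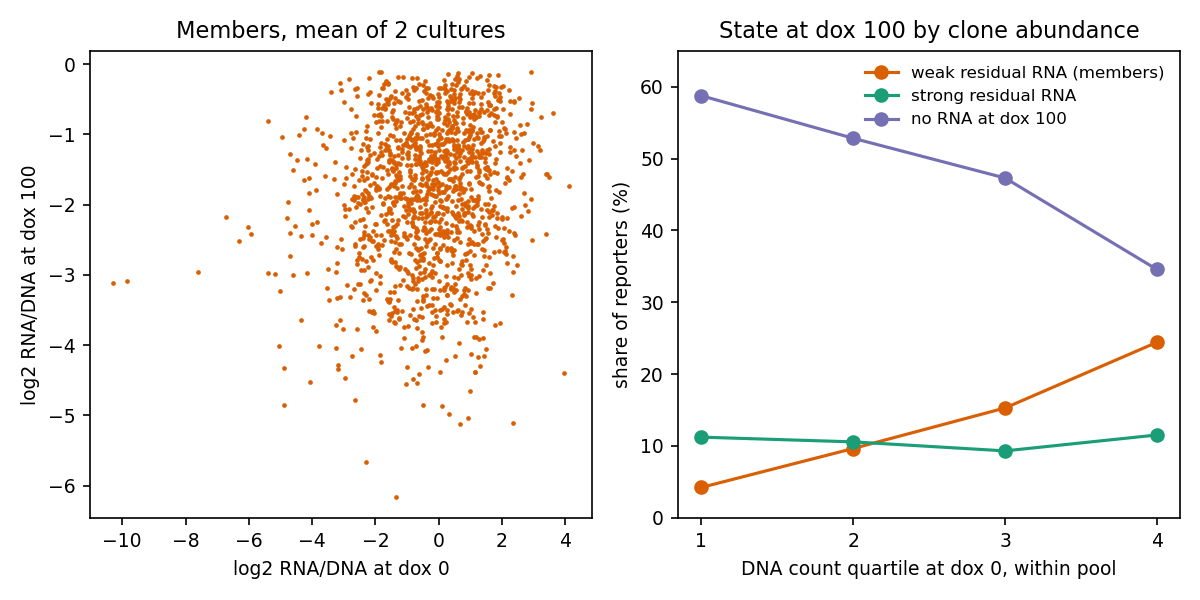
Left, log2 RNA/DNA of each member at dox 100 (y axis) against dox 0 (x axis), mean of 2 cultures, over library totals. Right, share of reporters (y axis, %) in 3 states at dox 100 by quartile of DNA count at dox 0 (x axis, 1 lowest); members rise from 4.23% to 24.4% and strong residual reporters stay between 9.32% and 11.5%.

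Neighbouring integrations of the members were mixed in their state at dox 100. Within 10 kb, 287 members made 363 pairs with neighbours in another pool, which share no culture with them. Of these neighbours 19.3% were members, 18.7% strong residual reporters, 25.6% had RNA in 1 culture only and 23.4% had none. Over all reporters with such neighbours, 16.8% of neighbours were members. By pool, the share of members among members' neighbours was 10.8%, 19.1%, 24.7% and 24.2% in pools A to D, a spread (SD 6.45 percentage points) wider than the gap to the share over all reporters.

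Within 10 kb, 62.2% of the 524 neighbours of strong residual reporters were strong residual reporters, against 24.3% of all neighbours, and 52.4% of the 596 neighbours of reporters without RNA lacked RNA too, against 27.6%. Within 1000 kb these shares were 20.9% against 12.6% and 48.6% against 43.8%. For members the share was 19.9% within 50 kb against 17.4% for all reporters, 19.3% against 17.0% within 100 kb and 15.3% against 14.9% within 1000 kb. The share among members' neighbours was thus within 3 percentage points of that among all neighbours at each of these distances. No test of the differences in shares was made, since pairs share reporters.

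**Figure D5:**
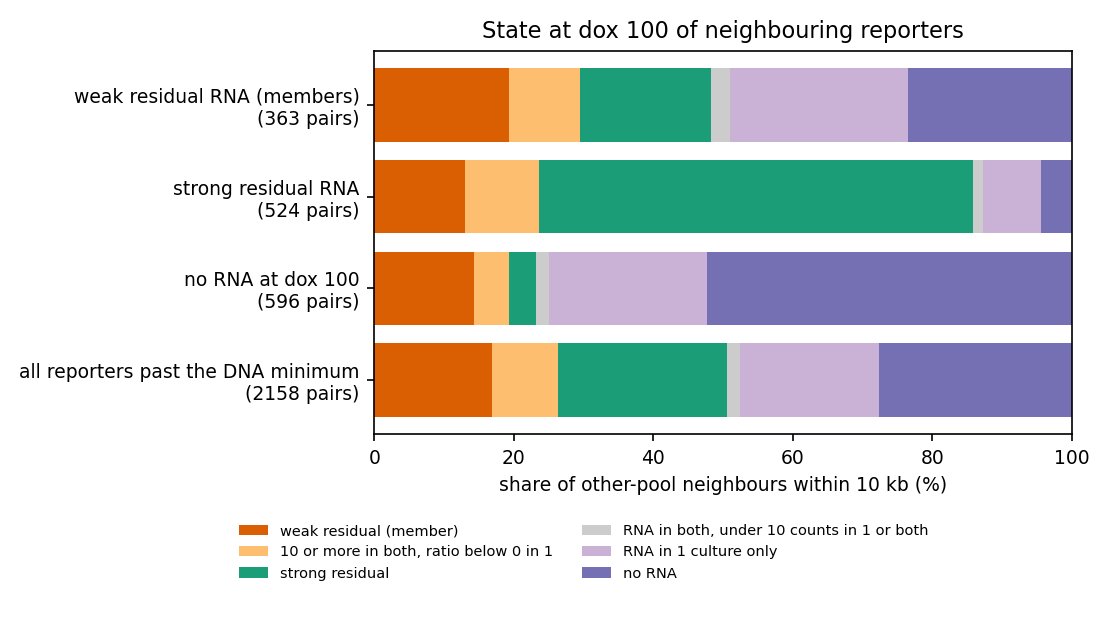
Share of neighbours within 10 kb in another pool (x axis, %) by their state at dox 100 (colours), for members, strong residual reporters, reporters with no RNA and all reporters past the DNA minimum (rows, with the number of neighbour pairs). Members' neighbours are 19.3% members, while neighbours of strong residual reporters are 62.2% strong residual.

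The closest pairs of members from different pools show both outcomes. On chromosome 16, members of pools C and D on the same strand, 295 bp apart at 37011413 and 37011708, had ratios of 0.24 and 0.80 at dox 0, −1.35 and −0.68 at dox 0.1 and −1.78 and −1.17 at dox 100. On chromosome 12, members of pools D and C, 138 bp apart at 33509177 and 33509315, had −0.23 and −0.65 at dox 0, −1.85 and −2.93 at dox 0.1 and −1.54 and −0.84 at dox 100. On chromosome 14, members of pools C and B, 715 bp apart at 28209647 and 28210362, had 1.76 and 0.41 at dox 0 but −0.94 and −0.99 at dox 0.1. The cultures of the pool C member on chromosome 14 stood at 0.43 and −2.31 at dox 0.1, with 40 and 251 DNA reads. On chromosome 12 they stood at −0.83 and −2.86 in pool D and at −1.88 and −3.98 in pool C. In these 3 pairs both members had lower mean ratios at dox 0.1 than at dox 0. A lower ratio in both cultures was common, at 66.85% of members and 73.56% of all reporters.

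The other 2 pairs were less alike at dox 0.1. On chromosome 11, members of pools A and B 176 bp apart at 4704021 and 4704197 had −1.80 and −1.40 at dox 0 and then 0.19 and −1.70 at dox 0.1, so that 1 gained and the other did not. On chromosome 18, members of pools C and D 170 bp apart had −0.83 and −1.03 at dox 0 and −1.40 and −5.61 at dox 0.1, so both were lower there but by unlike amounts. The value of −5.61 rests on 12 and 0 RNA reads in the cultures. Each of these differences compares reporters of different pools, measured in different libraries.

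Most members stood apart from other members. Linked at gaps of at most 50 kb, 1152 members had no other member beside them, 112 chains held 2, 15 held 3 and 6 held 4. Chains were not counted in the other groups of reporters, so these counts describe the members alone. A chain at chr8:49048990-49077233 held 4 members of 3 pools and no other reporter. Its ratios lay between −0.38 and 0.52 at dox 0, between −3.36 and −0.74 at dox 0.1, and between −4.16 and −1.23 at dox 100. A chain at chr19:14673632-14716505 held 4 members of 2 pools among 5 reporters, with −0.48 to 1.14 at dox 0, −0.76 to 0.96 at dox 0.1 and −2.79 to −1.33 at dox 100. In both stretches the levels at dox 0 lay close together.

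The other chain of this length that is named here differed. At chr8:13992965-14040127, 4 members of 3 pools lay among 5 reporters, the other being a strong residual reporter. The member at 13992965 in pool D had 4659 and 6058 RNA reads at dox 0 and 278 and 340 at dox 100, and the member at 14040127 in pool B had 4 and 2 reads at dox 0 and 49 and 58 at dox 100. Their ratios at dox 0 were 2.65 and −6.71, while those at dox 100 were −1.56 and −2.18. The chain thus held a member near the top and one near the bottom of the activated range.

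In insertion density the members lay between the other groups. The median distance from a member to the next reporter was 35299 bp, against 15854 bp for strong residual reporters, 72858 bp for reporters without RNA and 48572 bp for all. Strand showed little: 51.7% of members were on the plus strand and 49.3% of all reporters. Barcode GC content had a median of 43.8% in members and in all. The share of members by chromosome ran from 10.7% on chromosome 13 (95% Wilson interval 8.39% to 13.6%) to 16.5% on chromosome 16 (13.2% to 20.3%), and these intervals overlap. On Y, 0 of 6 reporters were members. A total of 123 members (8.51%, against 7.37% of all reporters) had a barcode that also occurs in another pool. In 10 of them the reporter with that barcode was a strong residual reporter. In 5 of these 10 it sat in a pool whose dox 100 RNA libraries used the same sequencing index. Of the 795 reporters of any group with a shared barcode, these counts were 78 and 30. Of the 365 without RNA at dox 100, they were 42 and 18. The part of this in the members' RNA was not tested.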

How the data were processed

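The authors deposited raw read counts per barcode, separate for cDNA and genomic DNA per the file headers, with a position for each reporter; 64 barcode libraries were used, and 16 mapping libraries served for the positions alone. The submitters' processing notes list Bowtie2 2.0 and mm9 without saying what for; the calling of barcodes is not given in the sources read here. Gene features were not analysed here. No column of sample values was left unused. Members, groups and lists were chosen with earlier results of these data known.

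Counts were fitted per pool with edgeR 4.0.16 (R 4.3.3): a quasi-likelihood test of assay by dose on the 12 libraries at dox 0, 0.01 and 0.1, TMM within assay, Benjamini-Hochberg over the pool's reporters at 0.05. The fit was tested on simulated data. The SE is the absolute log2 change over the square root of F. Ratios used the totals over reporters past the DNA minimum. Named were the 5 called members with the largest change in each direction, among those moved the same way in both same-numbered cultures. Also named were the 3 highest and lowest at dox 0, the 3 lowest at dox 100 and the 2 nearest reporters on each side of the threshold. So were the 5 closest pairs and 3 of the 6 chains of 4 members, those of the shortest span. Other reporters named were chosen after their values were seen. A fold against 0 reads uses a floor of 3 reads over the group. The labels say that a replicate number marks 1 culture divided over the doses; the correlation of deviations of same-numbered libraries was −0.036 to 0.046 over all reporters and −0.076 to 0.112 over members. Alternatives were another scaling, DESeq2 1.42.0, other minimums, a replicate block, the dox 100 libraries in the fit and leaving out each replicate. Python 3.11.15 with pandas 2.3.3 did the rest.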

Additional observations from a re-analysis of the deposited data

Results flagged for a closer look

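On chromosome 9, members made up 18.18% of the reporters of pool A, far from the 11.8%, 11.2% and 11.9% of pools B, C and D; 1 of 28 sets of 4 pools tested stood out in this way, and chance gives about 1 in 20. Of the 118 reporters left out by the DNA minimum, 21 had 10 or more RNA reads in both dox 100 libraries, and 2 of these met the rest of the rule.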

How the results depend on the processing

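Of the main values recomputed under the alternatives, 86 stayed within the SD over the 4 pools, or within 1.5 times for counts, and 23 did not. All 120 values of the named calls kept their direction and side of the threshold. Changes nevertheless moved by over 1.5 times in fold with single replicates and with library totals. The 5 largest losses also moved so with DESeq2's Wald test. It gave −10.15 at chr4:44604348, −7.79 at chr15:81847236, −7.93 at chr14:50067649, −8.03 at chr3:131850309 and −7.21 at chr3:108504305. The main fit gave −11.36, −9.44, −9.34, −9.25 and −8.63. The first was −12.16 with the replicate block, and −14.23 and −10.23 without replicate 1 and replicate 2 of dox 0. With library totals the 5 named gains were 5.28, 5.30, 3.66, 3.32 and 3.06 and the loss at chr16:11641951 was −5.61. For dox 0.1 against 0, library totals gave 532 members lower and 47 higher, and adding the dox 100 libraries to the fit gave 147 higher. Leaving out 1 replicate gave 60 to 268 lower and 112 to 300 higher, the lowest without replicate 2 of dox 0 (60 and 112), then without replicate 1 of dox 0 (61 and 119), and the most lower calls without replicate 1 of dox 0.1 (268); the excess of the members' median over all reporters ran from 0.95 to 1.14, the latter without that replicate. The replicate block gave 133 members (9.20%) lower and 215 (14.9%) higher, against 22.0% and 11.2% of all reporters, and changed no named call. For dox 0.01 against 0, DESeq2 called 1 lower and 10 higher. A DNA minimum of 100 gave 1 higher (0.0775%, against 0.175% of all reporters). Centring each library on its median reporter put the members' levels at 0.56, 0.79, 1.5 and 5.0 over the 4 doses. The last depends on the pseudocount, since the median RNA count at dox 100 was 0. A ratio below −1 as the rule left 805 members with levels of −0.39, −0.55, −1.77 and −2.40, and 12.1% of their neighbours were members, against 9.22% for all. A DNA minimum of 100 raised the members' share to 17.0% and that on chromosome 13 to 15.4%. An RNA minimum of 20 left 1397 members. Counts of 10 to 20 reads at dox 100 limit the single ratios there. The cause of these shifts was not tested.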

Other observations

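For 16 members another reporter lay 1 bp away, each time on the opposite strand and for 5 of these members in the same pool. The neighbour was a member for 4 and a strong residual reporter for 3. It had RNA in 1 dox 100 culture for 7 and a ratio below 0 in 1 culture for 2. These are counts of members, so a pair of members is counted from both sides. The 4 with a member beside them form the 2 pairs of pool A given next. In pool A, the members at chr8:49077232 and chr8:49077233 had ratios of 0.52 and 0.21 at dox 0 and −0.76 and −0.74 at dox 0.1, but −4.16 and −1.23 at dox 100. The members at chr9:14838663 and chr9:14838664, also in pool A, had −0.81 and −0.36 at dox 0 and −2.31 and −3.45 at dox 100. On chromosome 13, the member at 53279849 in pool A had −3.87 at dox 0 and −1.79 at dox 100, where the strong residual reporter 1 bp away in pool C had 1.10 and 2.05.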
